A study of Homo sapiens with 6 samples.

Results

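Transcript levels of 10 genes of DNA methylation and replication-coupled chromatin assembly were examined in T-24 cells treated with CCT068127. The genes were taken by symbol from the deposited read count and TPM tables: the DNA methyltransferases DNMT1, DNMT3A and DNMT3B, the cofactor UHRF1, the dioxygenases TET1, TET2 and TET3, the chromatin assembly factor 1 (CAF-1) subunits CHAF1A and CHAF1B, and the histone chaperone ASF1B. All 10 were found among 38557 symbols, and all 10 were among the 13597 genes that passed the filter on low counts. T-24 is an established epithelial cell line of human bladder cancer origin, and the results describe that line alone. One group of 3 libraries came from cells given CCT068127, a compound known as an inhibitor of CDK2 and CDK9, at 1 µM for 48 h. The other group of 3 came from cells given the vehicle DMSO for the same 48 h. The labels name no genetic change in either group. Poly(A) RNA was sequenced, and the labels describe the 3 libraries of a group as independent biological replicates.

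DNA methylation is copied after each round of replication. UHRF1 binds hemimethylated CpG sites left behind the replication fork and brings in DNMT1, which methylates the new strand. DNMT3A and DNMT3B place methyl groups on sites that carried none, and the TET enzymes oxidise methylated cytosine as a step towards its removal. At the same forks ASF1 hands newly made histones H3 and H4 to CAF-1, which is tethered to the sliding clamp PCNA and deposits them on the daughter strands. DNMT1, UHRF1 and the CAF-1 and ASF1B genes are known as transcripts of dividing cells.

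Library totals ran from 1966742 to 5557546 counts in the CCT068127 group and from 5955296 to 411097626 counts in the DMSO group, in which replicates 1 and 2 hold the high totals, and the labels do not say whether those libraries were sequenced or combined differently. Levels are given in CPM, counts scaled to a common library total. A value of 0 counts allowed up to 3 counts, equal to 0.54 to 1.53 CPM in the CCT068127 libraries and 0.0073 to 0.504 CPM in the DMSO libraries. These floors are on plain library totals, without the TMM scaling used for the CPM of the genes. The epithelial keratin genes KRT7, KRT8, KRT18 and KRT19 stood between 291 and 2650 TPM in the CCT068127 libraries and between 191 and 2290 TPM in the DMSO libraries, and EPCAM between 2.67 and 4.11 TPM in the CCT068127 libraries and between 4.29 and 5.71 TPM in the DMSO libraries. Of 8 markers of leukocytes, endothelium and fibroblasts, DCN was at 0 counts in all 6 libraries, COL1A2 and CD3E were at 0 in the CCT068127 libraries, and PTPRC, VWF, COL1A1 and PECAM1 stayed at or below 3.3 TPM in every library. CD68, which also encodes a lysosomal protein, stood between 40.1 and 43.3 TPM in the CCT068127 libraries and between 4.93 and 9.24 TPM in the DMSO libraries.

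In CCT068127-treated cells the transcripts of methylation maintenance and of replication-coupled histone deposition were higher, and those of DNMT3A, TET2 and TET3 were lower, than in DMSO-treated cells. DNMT1, UHRF1, CHAF1A, CHAF1B and ASF1B rose between 2.01-fold and 4.72-fold. DNMT3A, TET2 and TET3 fell between 1.93-fold and 2.4-fold. These are changes in counts. On log2(TPM + 1) values DNMT3A changed by -0.46, equal to the median of all genes, and CHAF1B by 1.01 in place of 2.24. DNMT3B and TET1 did not pass the test. In all, 8 of the 10 genes passed an adjusted p of 0.05 in edgeR's quasi-likelihood test, 5 higher and 3 lower, in a comparison where 64.7% of all tested genes passed, 31.9% as higher and 32.8% as lower. The share of these genes past the threshold was therefore not far from the background. The CPM values of the groups did not overlap for 9 of the 10, against 69.4% of all tested genes. The median log2 fold change was 0.66 over the 10 genes and -0.05 over all genes tested.

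**Figure D1:**
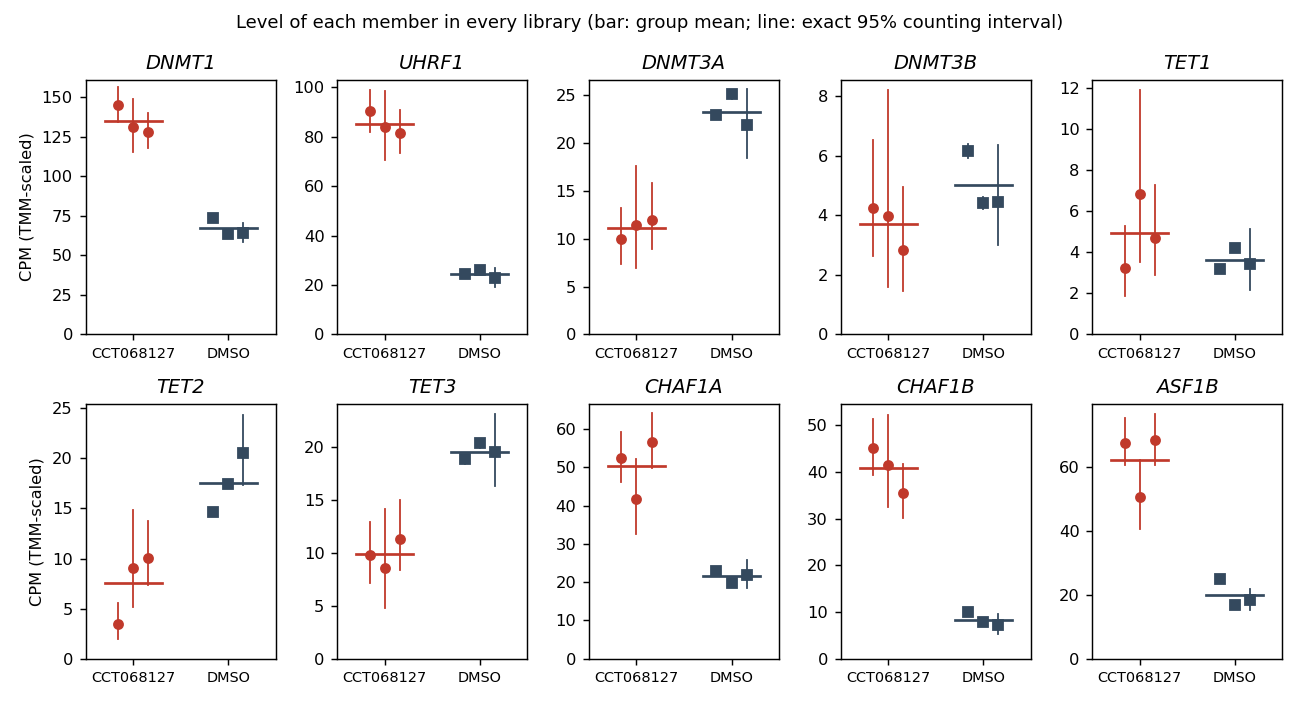
CPM of each gene in the 3 CCT068127 libraries (circles) and the 3 DMSO libraries (squares), on linear axes starting at 0, with the group mean as a bar and the exact 95% counting interval of each library as a line. The groups stand apart for every gene but TET1, with CCT068127 libraries above for DNMT1, UHRF1, CHAF1A, CHAF1B and ASF1B and below for DNMT3A, DNMT3B, TET2 and TET3.

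The promoters of UHRF1, DNMT1, ASF1B and TET2 are shown because they held the cell cycle motifs searched for, in genes that rose and in one that fell. Each run covers 150 bases before to 20 bases after the RefSeq transcript start (GRCh38.p14), read 5′ to 3′ on the gene's strand. Capitals mark matches to an E2F-type motif in UHRF1 and DNMT1 and to the CHR (cell cycle genes homology region) motif in ASF1B and TET2.
UHRF1, chr19:4909351-4909520, plus strand: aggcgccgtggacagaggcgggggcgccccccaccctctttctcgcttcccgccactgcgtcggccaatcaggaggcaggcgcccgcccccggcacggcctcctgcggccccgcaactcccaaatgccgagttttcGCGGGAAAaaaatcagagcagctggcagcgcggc
DNMT1, chr19:10194934-10195103, minus strand: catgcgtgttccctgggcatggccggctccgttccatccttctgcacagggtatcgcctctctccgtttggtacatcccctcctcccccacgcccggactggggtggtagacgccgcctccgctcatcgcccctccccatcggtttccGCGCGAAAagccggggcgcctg
ASF1B, chr19:14136570-14136739, minus strand: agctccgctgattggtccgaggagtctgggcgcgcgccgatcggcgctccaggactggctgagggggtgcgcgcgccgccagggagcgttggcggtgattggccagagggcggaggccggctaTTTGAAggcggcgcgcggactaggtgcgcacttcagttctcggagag
TET2, chr4:105145725-105145894, plus strand: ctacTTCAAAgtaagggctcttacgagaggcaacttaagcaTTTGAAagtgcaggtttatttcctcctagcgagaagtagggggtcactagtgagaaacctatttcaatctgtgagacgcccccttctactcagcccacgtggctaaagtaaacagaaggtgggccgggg

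The E2F-type motif was spelled TTTCCCGC, TTTCGCGC, TTTGCCGC or TTTGGCGC and the CHR motif TTTGAA, on both strands, over windows of 300 bases from 250 before to 50 after the start. All 10 genes had such a window. The E2F-type motif was present in 2 of them, UHRF1 (first base at position -14 from the start) and DNMT1 (at -2), and in 3.33% of 27305 promoters in the RefSeq table, or 5.46% of the 10412 promoters of tested genes. The CHR motif was present in 2, ASF1B (at -27) and TET2 (at -146 and -109), and in 15.4% of the table, or 9.57% of the promoters of tested genes. The windows also differed in CpG content. TET3 had 45 CpG sites, CHAF1A 37, UHRF1 36, ASF1B 31, and DNMT1 and CHAF1B 30 each. DNMT3A had 26, TET2 13, TET1 10 and DNMT3B 3, against a median of 14 over the table and 26 over the promoters of tested genes. The start used for DNMT3B lay between 32779702 and 32779871 on chromosome 20 (plus strand), inside the gene, which begins at 32762385. The windows of DNMT1, UHRF1 and ASF1B also lay inside their genes. Counts and matches describe the windows used and not other transcript starts of a gene. Both genes with an E2F-type match rose, and so did CHAF1A, CHAF1B and ASF1B, which had none. The CHR motif was found in ASF1B, which rose, and in TET2, which fell. Whether either motif relates to the changes was not tested.

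DNMT1 (chromosome 19, 10133345 to 10231286, minus strand, GRCh38), the maintenance methyltransferase, was at 145, 131 and 128 CPM in CCT068127 replicates 1 to 3, against 73.6, 63.6 and 64 CPM in DMSO replicates 1 to 3. Each CCT068127 library was above each DMSO library, and DNMT1 rose by 1.00 ± 0.11 on the log2 scale (SE, n = 3 per group, with an adjusted p of 1.35e-05 in edgeR).

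UHRF1 (chromosome 19, 4903080 to 4962154, plus strand), which recruits DNMT1 to hemimethylated DNA, changed more. It was at 90.2, 83.7 and 81.6 CPM in CCT068127 replicates 1 to 3 and at 24.5, 26.2 and 22.8 CPM in DMSO replicates 1 to 3. Every CCT068127 value was above the highest DMSO value, and the values of a group lay close together. Its log2 fold change was 1.79 ± 0.11 (edgeR adjusted p = 2.52e-07), which is 3.46-fold.

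The ratio of UHRF1 to DNMT1 within a library does not depend on the scaling between libraries. On log2(TPM + 0.1) values, UHRF1 minus DNMT1 was -0.24, -0.23 and -0.21 in the CCT068127 libraries and -1.15, -0.84 and -1.06 in the DMSO libraries. UHRF1 transcripts thus stood nearer to those of DNMT1 in all 3 treated libraries, with a difference of 0.79 between the groups. The two-sided exact permutation p was 0.1, the smallest that 3 against 3 allows, and 0.2 after adjustment over the 4 ratios examined.

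CHAF1A (chromosome 19, 4402662 to 4445018, plus strand) encodes the large subunit of CAF-1, which binds PCNA. It was at 52.4, 41.6 and 56.6 CPM in CCT068127 replicates 1 to 3, against 22.9, 19.8 and 22 CPM in DMSO replicates 1 to 3. The groups did not overlap. CHAF1A rose by 1.25 ± 0.13 on the log2 scale (edgeR adjusted p = 1.36e-05).

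CHAF1B (chromosome 21, 36385378 to 36419015, plus strand), the middle subunit, had the largest log2 fold change of the 10 genes in counts, though not in TPM, at 2.24 ± 0.16 or 4.72-fold (edgeR adjusted p = 7.27e-07). It was at 45.1, 41.6 and 35.6 CPM in CCT068127 replicates 1 to 3 and at 9.99, 7.82 and 7.29 CPM in DMSO replicates 1 to 3, with no overlap. On log2(TPM + 0.1) values CHAF1A minus CHAF1B was 0.62, 0.39 and 1.08 in the CCT068127 libraries and 0.84, 1.00 and 1.42 in the DMSO libraries. These ranges overlapped, and the difference of -0.39 did not pass (two-sided exact permutation p = 0.3, adjusted p = 0.4). RBBP4, the histone-binding subunit that CAF-1 shares with other complexes, was added after its value was seen. It was at 132 ± 8.3 CPM in CCT068127 and 143 ± 12.6 CPM in DMSO libraries (SD, n = 3) and did not pass (log2 fold change -0.12 ± 0.11, edgeR adjusted p = 0.345), but it passed as lower with scaling by library totals (-0.43, adjusted p = 0.00408), without a filter on low counts (-0.35, adjusted p = 0.0415) and on log2(TPM + 1) values (-0.58, limma adjusted p = 0.00238).

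ASF1B (chromosome 19, 14119509 to 14136956, minus strand), the histone H3 and H4 chaperone paralog of proliferating cells, was at 67.6, 50.7 and 68.4 CPM in CCT068127 replicates 1 to 3, against 25.1, 16.7 and 18.5 CPM in DMSO replicates 1 to 3. Every treated library was above every vehicle library. The log2 fold change was 1.64 ± 0.18 (edgeR adjusted p = 1.64e-05). Its paralog ASF1A, which also serves histone deposition outside replication, fell to 9.8 ± 1.53 CPM in CCT068127, against 16.4 ± 0.4 CPM in DMSO (log2 fold change -0.73 ± 0.16, edgeR adjusted p = 0.00203). The paralogs thus moved in opposite directions. On log2(TPM + 0.1) values ASF1B minus ASF1A was 3.48, 3.01 and 3.10 in the CCT068127 libraries and 1.14, 0.62 and 0.72 in the DMSO libraries. This difference of 2.37 was the largest of the 4 ratios (two-sided exact permutation p = 0.1, adjusted p = 0.2).

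The transcripts of the replication fork itself were higher in the same libraries. All 18 genes of a replication fork list (helicase, polymerase, clamp loader and nucleotide synthesis genes among others) rose (median 1.70), against 31.9% of all tested genes. The list was chosen with earlier results of these data known. The mean level of its genes relative to the DMSO mean was 1.97, 1.86 and 1.87 on the log2 scale in CCT068127 replicates 1 to 3. In DMSO replicates 1 to 3 it was 0.21, -0.10 and -0.11. MCM2, a helicase subunit, rose by 2.56 ± 0.14 and MCM4 by 1.75 ± 0.10 on the log2 scale. The flap nuclease FEN1 rose to 237 ± 13.5 CPM in CCT068127, against 29.3 ± 4.74 CPM in DMSO. On the same scale DNMT1 was at 1.11, 0.96 and 0.93, UHRF1 at 1.86, 1.76 and 1.72 and CHAF1B at 2.37, 2.26 and 2.04 in CCT068127 replicates 1 to 3. Whether the fork genes and these genes moved for a shared reason was not tested. In RNA from whole cultures, a larger share of cells in S phase and more RNA per cell cannot be told apart.

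**Figure D2:**
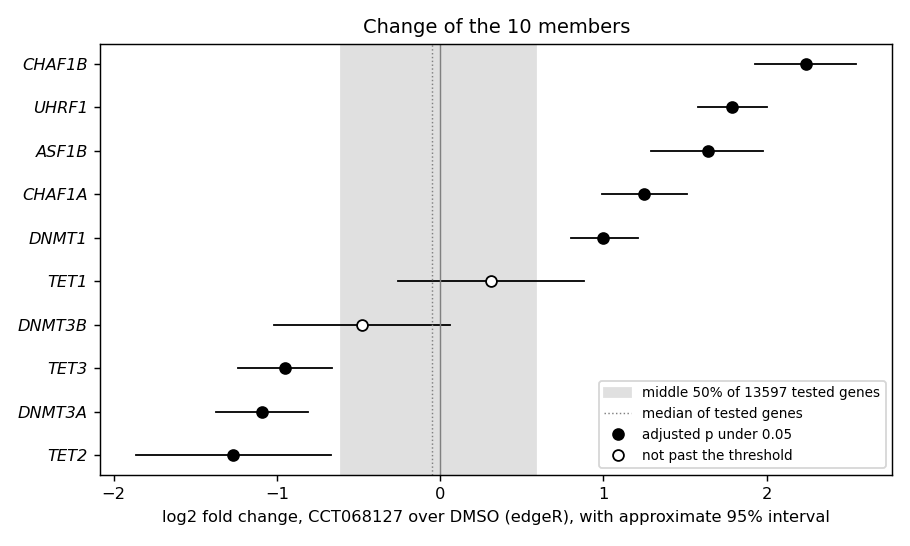
The log2 fold change of each gene (CCT068127 over DMSO, edgeR) with an approximate 95% interval, filled where the adjusted p was under 0.05. The 5 genes that rose lie between 1.00 and 2.24 and the 3 that fell between -1.27 and -0.95, all outside the grey band that holds the middle of the tested genes, while DNMT3B and TET1 reach into it.

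Among the de novo methyltransferases, DNMT3A (chromosome 2, 25227855 to 25342590, minus strand) fell. It was at 9.95, 11.4 and 12 CPM in CCT068127 replicates 1 to 3, against 22.9, 25.1 and 21.9 CPM in DMSO replicates 1 to 3. No values overlapped, and the log2 fold change was -1.09 ± 0.14 (edgeR adjusted p = 7.19e-05), 2.13-fold lower.

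The fall of DNMT3A was smaller in TPM, which divide reads by transcript length. It was at 4.55, 6.22 and 6.84 TPM in the CCT068127 libraries and at 8.5, 8.78 and 7.82 TPM in the DMSO libraries, and the change of -0.46 on log2(TPM + 1) values (limma adjusted p = 0.033) did not pass without a filter on low values (adjusted p = 0.0673). The median of all genes on that scale was also -0.46, so relative to it DNMT3A changed by 0.00.

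DNMT3B (chromosome 20, 32762385 to 32809356, plus strand) was low, with 21, 7 and 12 counts (4.26, 3.98 and 2.83 CPM) in CCT068127 replicates 1 to 3, against 6.14, 4.41 and 4.46 CPM in DMSO replicates 1 to 3. The CCT068127 values lay below the DMSO values, by little at the nearest pair. The log2 fold change of -0.48 ± 0.28 did not pass (edgeR adjusted p = 0.148), and its approximate 95% interval ran from -1.02 to 0.06. With scaling by library totals DNMT3B passed as lower (-0.80, adjusted p = 0.0235), and it also did without a filter on low counts (-0.74, adjusted p = 0.0455). The within-library ratio DNMT3B minus DNMT3A was -1.40, -1.62 and -2.58 in the CCT068127 libraries and -1.37, -1.91 and -1.70 in the DMSO libraries. It overlapped between the groups (difference -0.21, two-sided exact permutation p = 0.8) and turned to 0.15 without CCT068127 replicate 3.

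In TPM, a scale on which genes of different length can be set side by side, DNMT1 was the main methyltransferase transcript in both groups. Its share of the summed TPM of DNMT1, DNMT3A and DNMT3B was 86.7%, 82.3% and 82.5% in the CCT068127 libraries and 71.8%, 69.6% and 71.9% in the DMSO libraries. DNMT3A made up 9.74% to 15.2% in the CCT068127 libraries and 20.5% to 24.2% in the DMSO libraries. The sum itself was 46.7, 46.3 and 45.1 TPM in CCT068127 and 41.5, 36.3 and 36.2 TPM in DMSO.

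TET2 (chromosome 4, 105145875 to 105279816, plus strand), a dioxygenase that lacks the CXXC DNA-binding domain found in TET1 and TET3, was at 3.45, 9.11 and 10.1 CPM in CCT068127 replicates 1 to 3, against 14.6, 17.4 and 20.5 CPM in DMSO replicates 1 to 3. CCT068127 replicate 1, with 17 counts, stood well below the other treated libraries, and no library crossed between the groups. The log2 fold change was -1.27 ± 0.31 (edgeR adjusted p = 0.00422). Without CCT068127 replicate 1 it was -0.83 (adjusted p = 0.0115).

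TET3 (chromosome 2, 73986404 to 74108176, plus strand) was tighter. It was at 9.75, 8.54 and 11.3 CPM in CCT068127 replicates 1 to 3 and at 18.8, 20.3 and 19.5 CPM in DMSO replicates 1 to 3, with no overlap. The change was -0.95 ± 0.15 on the log2 scale (edgeR adjusted p = 0.000231).

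TET1 (chromosome 10, 68560656 to 68694482, plus strand) had few counts, 16, 12 and 20 in CCT068127 replicates 1 to 3, where it stood at 3.25, 6.83 and 4.72 CPM, against 3.17, 4.22 and 3.42 CPM in DMSO replicates 1 to 3. The groups overlapped. The 12 counts of CCT068127 replicate 2 allow 3.53 to 11.9 CPM (exact 95% interval, counting error only). The log2 fold change of 0.31 ± 0.29 did not pass (edgeR adjusted p = 0.366; approximate 95% interval -0.26 to 0.88), and it was -0.03 on unfiltered log2(TPM + 1) values. A change of the size seen in TET2 or TET3 would lie outside that interval in the direction of a fall.

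Summed over the 3 TET genes, the level was 2.12, 3.55 and 3.64 TPM in the CCT068127 libraries and 7.53, 8.43 and 9.1 TPM in the DMSO libraries. TET1 made up 14.6% to 19.7% of the sum in the CCT068127 libraries and 6.04% to 7.35% in the DMSO libraries. The shares of TET2 (24.1% to 47.9% in CCT068127, 43.2% to 50.7% in DMSO) and of TET3 (32.4% to 59.9% in CCT068127, 43.3% to 50.5% in DMSO) overlapped between the groups.

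**Figure D3:**
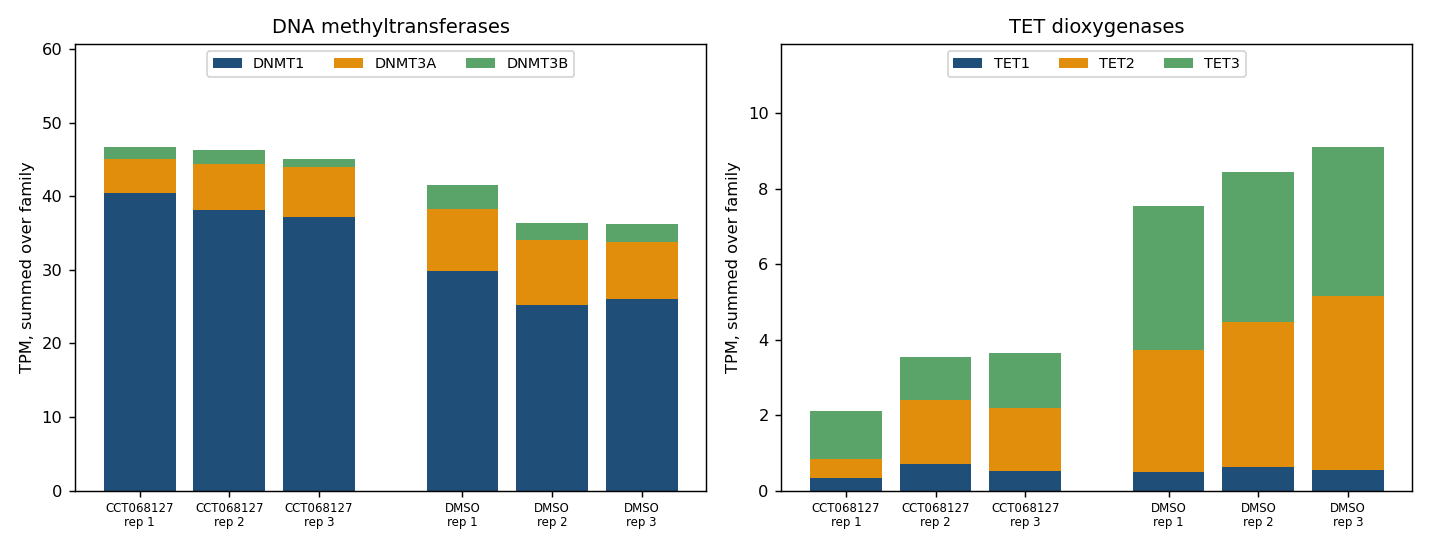
Deposited TPM of the DNA methyltransferase genes (left) and of the TET genes (right) stacked within each library, with axes starting at 0. The methyltransferase bars are taller in the CCT068127 libraries, 45.1 to 46.7 TPM, with a larger DNMT1 part, and the TET bars are shorter, 2.12 to 3.64 TPM against 7.53 to 9.1 TPM in DMSO.

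The order of the 10 genes by mean TPM changed. In CCT068127 libraries ASF1B came first (57.7 ± 8.86 TPM, SD, n = 3), then DNMT1 (38.6 ± 1.69), UHRF1 (32.9 ± 1.18), CHAF1A (22.6 ± 3.43), CHAF1B (13.8 ± 1.45) and DNMT3A (5.87 ± 1.18), and the values of neighbours in this order did not overlap down to DNMT3B (1.56 ± 0.458), TET3 (1.29 ± 0.156), TET2 (1.29 ± 0.673) and TET1 (0.523 ± 0.18), where they did. In DMSO libraries DNMT1 (27 ± 2.43 TPM) and ASF1B (26.2 ± 5.97) overlapped at the top, as did CHAF1A (13.5 ± 1.16) with UHRF1 (13.3 ± 0.832) below them. DNMT3A (8.37 ± 0.494) overlapped with CHAF1B (6.42 ± 1.5), and TET3 (3.9 ± 0.0907) with TET2 (3.9 ± 0.682). DNMT3B (2.61 ± 0.533) and TET1 (0.55 ± 0.07) were lowest. CHAF1B stood above DNMT3A in each of the 3 CCT068127 libraries and below it in each of the 3 DMSO libraries.

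Counts and TPM gave different sizes of change for DNMT3A and CHAF1B. The deposited count divided by the deposited TPM follows the transcript length that the quantification assigned to a gene in a library. Relative to the median gene of the library, this quotient for DNMT3A was 1.11, 0.964 and 0.92 in CCT068127 replicates 1 to 3 and 1.96, 2.03 and 2.04 in DMSO replicates 1 to 3. For CHAF1B it was 1.54, 1.52 and 1.53 in the CCT068127 libraries and 0.899, 0.915 and 1.03 in the DMSO libraries. The quotient was thus lower for DNMT3A (log2 difference -1.01) and higher for CHAF1B (0.69) in every treated library. Whether sequencing depth relates to this was not tested. The groups also stood apart in this quotient for 50.5% of the genes compared, DNMT1, ASF1B and TET3 among them, so the size of the difference matters. A log2 difference of at least 0.5 in either direction was seen in 2.48% of 12283 genes with at least 1 count and more than 0.5 TPM in each library, and the median size was 0.02. For DNMT1, UHRF1, CHAF1A and ASF1B the differences were between 0.01 and 0.02, for TET2 -0.04, for TET3 0.13 and for DNMT3B -0.15. TET1 did not enter, at 0.34 TPM in CCT068127 replicate 1 and 0.48 TPM in DMSO replicate 1. This quotient was examined after the values had been seen. Which transcript isoforms were present was not analysed here. In GENCODE v29 the exons of CHAF1B shared 89 bases with MORC3, those of DNMT1 83 with S1PR2 and those of CHAF1A 20 with UBXN6, the last on the opposite strand.

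**Figure D4:**
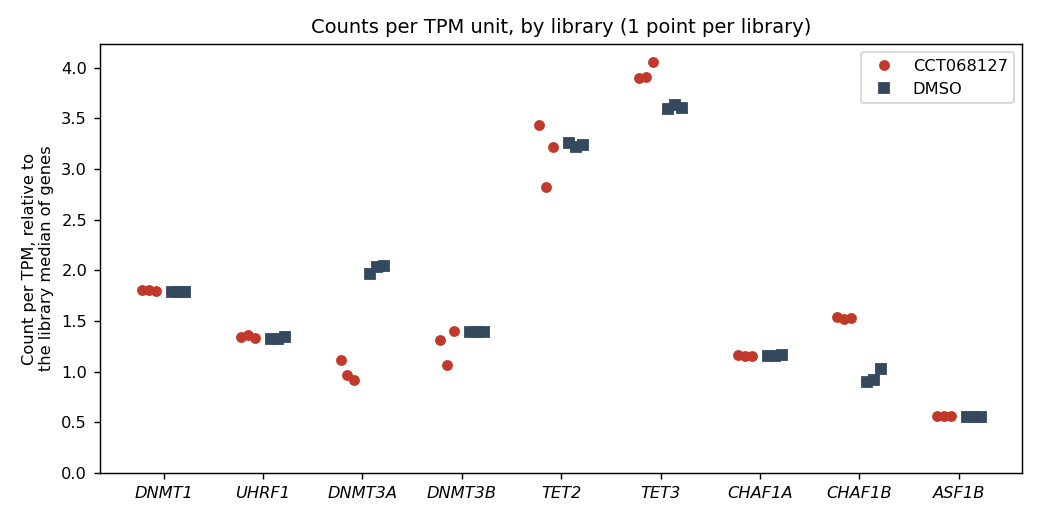
Deposited count divided by deposited TPM, relative to the median gene of the library, for the 9 genes above 0.5 TPM in every library, with 1 point per library and an axis starting at 0. The CCT068127 circles lie below the DMSO squares for DNMT3A (0.92 to 1.11 against 1.96 to 2.04) and above them for CHAF1B (1.52 to 1.54 against 0.899 to 1.03), and lie close to them for DNMT1, UHRF1, CHAF1A and ASF1B.

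The zero line of the comparison depends on the scaling. The median of all genes was -0.36 with scaling by library totals, in place of -0.05 with TMM, and 2999 genes were higher and 6581 lower, in place of 4333 and 4460. A change from TMM to library totals shifts all genes by nearly the same amount. Values relative to the median are therefore nearly equal under both by construction, and their likeness is no check. Relative to the median of all genes the change of UHRF1 was 1.84 with either scaling and 1.71 on log2(TPM + 1) values. That of DNMT1 was 1.06 with TMM, 1.05 with library totals and 0.96 on log2(TPM + 1) values, and that of CHAF1A 1.30, 1.30 and 1.15. ASF1B gave 1.69, 1.69 and 1.58, and CHAF1B 2.29, 2.29 and 1.48. TET2 gave -1.22, -1.21 and -0.68 and TET3 -0.90, -0.90 and -0.64. For TET2 and TET3, at a mean of 1.29 TPM in CCT068127 and 3.9 TPM in DMSO libraries, the last value depends on the added 1. On log2(TPM + 0.1) values TET2 changed by -1.67 and TET3 by -1.53, where the median of all genes was -0.53. Unadjusted for the median of all genes, DNMT1 (0.50), CHAF1A (0.69) and CHAF1B (1.01) had smaller changes on log2(TPM + 1) values than in counts. Each still passed (limma adjusted p = 0.00321, 0.00307 and 0.0013).

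Genes that work with the maintenance machinery were followed in a list of 16, all tested. Of these 8 rose and 4 fell, with a median log2 fold change of 0.28, against 31.9% higher and 32.8% lower among all tested genes. Library totals as the scaling left 5 higher and 7 lower (median -0.04), and log2(TPM + 1) values 4 higher and 7 lower (median -0.19). PCNA, LIG1, CDCA7 and HELLS were called higher under each scaling run. PCNA, the clamp that holds DNMT1 and CAF-1 at the fork, was at 188 ± 5.45 CPM in CCT068127, against 43.8 ± 2.15 CPM in DMSO (log2 fold change 2.09 ± 0.10, edgeR adjusted p = 6.98e-08). LIG1, the ligase of Okazaki fragments that helps recruit UHRF1, rose by 2.15 ± 0.19 and CDCA7, a partner of the remodeller HELLS, by 1.16 ± 0.16. HELLS, singled out after its value was seen because it opens nucleosomal DNA to DNMT1, rose by 1.18 ± 0.22. DMAP1, a DNMT1-binding protein, fell to 21.3 ± 3.69 CPM in CCT068127, against 44.1 ± 0.463 CPM in DMSO.

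Among 9 readers of DNA methylation, 1 was called higher and 5 lower (median -0.32), against 31.9% and 32.8% of all tested genes. Scaled by library totals, 0 readers were higher and 7 lower. Without CCT068127 replicate 3 the number that fell was 3, and without DMSO replicate 2 the number that rose was 0. The zinc finger readers ZBTB4 (-0.73 ± 0.10) and ZBTB33, which encodes Kaiso (-0.92 ± 0.21), were lower. UHRF2, the paralog of UHRF1, rose by 0.39 ± 0.12 (edgeR adjusted p = 0.0128), a call lost with library totals (0.07, adjusted p = 0.589), without a filter on low counts (0.15, adjusted p = 0.563) and without DMSO replicate 2 (0.29, adjusted p = 0.114), and it stood at -0.07 on log2(TPM + 1) values.

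The chaperone list beyond the CAF-1 and ASF1B genes had 22 members. Of them 8 rose, 4 fell and 10 did not pass (median 0.12), where 31.9% of all tested genes rose and 32.8% fell. Library totals gave 4 higher and 8 lower (median -0.19), log2(TPM + 1) values gave 3 higher and 11 lower (median -0.34), and without DMSO replicate 2 the number that fell was 2. TONSL, which reads new histones behind the fork, rose to 74.9 ± 13.2 CPM in CCT068127, against 13.3 ± 2.84 CPM in DMSO (log2 fold change 2.47 ± 0.17). HAT1, which acetylates new histone H4, rose by 1.21 ± 0.14. IPO4, an importin of H3 and H4, rose by 0.72 ± 0.14, though not in TPM (0.19 on the log2(TPM + 1) scale, limma adjusted p = 0.231). The member that fell with the smallest adjusted p was ASF1A.

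In the methyl donor cycle, 10 of 12 genes were tested. Of these 2 rose and 3 fell, against 31.9% and 32.8% of all tested genes (median -0.04, or 0.04 with the deep DMSO libraries thinned). Library totals gave 1 higher and 6 lower, and log2(TPM + 1) values gave 1 higher and 7 lower, while 1 was higher without DMSO replicate 3. MAT2A, which makes the methyl donor S-adenosylmethionine, fell to 98.1 ± 15.2 CPM in CCT068127, against 314 ± 27 CPM in DMSO (log2 fold change -1.69 ± 0.13, edgeR adjusted p = 1.47e-06). Its regulatory partner MAT2B fell by 0.62 on the log2 scale. ADK, adenosine kinase, which clears a product of methylation, rose by 1.42 ± 0.11.

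Among partners of active demethylation 13 of 14 were tested. Of these 5 rose and 6 fell (median -0.25), against 31.9% and 32.8% of all tested genes. Both library totals and log2(TPM + 1) values gave 2 higher and 7 lower, and without DMSO replicate 2 the number that rose was 3. OGT, a glycosyltransferase that binds TET proteins, fell to 117 ± 30.8 CPM in CCT068127, against 427 ± 61 CPM in DMSO (log2 fold change -1.88 ± 0.19). CXXC5, which carries a CpG-binding domain related to that of TET proteins, fell by 1.48 and D2HGDH, which clears an inhibitor of TET enzymes, by 0.89 on the log2 scale. GADD45B, a stress-induced gene with a proposed role in demethylation, rose to 1410 ± 61.3 CPM in CCT068127, against 54.5 ± 15.9 CPM in DMSO (log2 fold change 4.67 ± 0.20).

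By likeness of profile over the 6 libraries (the Euclidean distance of log2 CPM relative to the DMSO mean, among 11329 genes averaging 5 CPM or more), the genes nearest to UHRF1 were CTSB (distance 0.14), ATP5MF (0.14), TMA7 (0.18) and PRDX2 (0.18). Among those nearest to DNMT3A were PSD3 (0.08), CREB3L4 (0.10) and FAM210B (0.12). With 2 groups of 3 libraries this likeness mainly reflects a similar difference between the groups.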

How the data were processed

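Per the labels and the values, the authors deposited 1 table of estimated counts, in whole numbers by gene symbol, and 1 of TPM. The submitters' processing notes name RSEM, Bowtie and hg38. Versions, annotation and strand setting are not given in the sources used here. Genes and columns were matched by symbol and by sample title. The 10 genes and the gene lists were chosen with earlier results of these data known.

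Counts were fitted in R 4.3.3 with edgeR 4.0.16: filterByExpr (minimum count 10), TMM scaling, a robust quasi-likelihood model with treatment as its term, and Benjamini-Hochberg adjustment over 13597 genes. Standard errors were approximated from the F statistic, and CPM use TMM-scaled totals. Rose and fell are used for genes at an adjusted p under 0.05. The edgeR and limma fits were tested on simulated data. Alternatives used DESeq2 1.42.0, limma-trend in limma 3.58.1 on log2(TPM + 1) and log2(TPM + 0.1) values (a filter of 1 TPM in 3 libraries, or none), other scalings, no filter, thinning of the deep DMSO libraries (replicates 1 and 2) to the depth of DMSO replicate 3, a replicate block, and leave-one-out fits. Replicate pairs differed by more than counting noise (chi-square per degree of freedom 1.92 to 7.04), so each library counted once. Intervals and floors cover counting error only. Named besides the 10 were, ranked by adjusted p, up to 3 genes of a list in its commoner direction and 1 moving the other way, the ratio partners and the 4 nearest profiles of UHRF1 and DNMT3A. Some genes that this rule selects are not reported here. Positions are from GENCODE v29 and promoters from RefSeq.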

Additional observations from a re-analysis of the deposited data

How the results depend on the processing

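Over 15 alternative fits, DNMT1, UHRF1, TET2, TET3, CHAF1A, CHAF1B and ASF1B kept their direction and stayed past the threshold in each (TET2 with adjusted p up to 0.0196). DNMT3A lost its call in 1 fit, on unfiltered log2(TPM + 1) values (-0.46, adjusted p = 0.0673, with 2.89e-10 as the lowest of the fits). DNMT3B gained a call as lower with scaling by library totals (-0.80) and without a filter on low counts (-0.74), with adjusted p from 0.0235 to 0.432 over its fits. TET1 turned to -0.03 on unfiltered log2(TPM + 1) values. The numbers of all genes higher and lower were 2474 and 7472 on log2(TPM + 1) values and 2444 and 7299 on log2(TPM + 0.1) values, and 7365 were lower without a filter. Leaving out 1 library at a time gave 8 called genes of the 10 each time, 5 higher and 3 lower, with 7816 to 9242 genes called in all. UHRF1 ranged from 1.71 to 1.82, DNMT1 from 0.91 to 1.05, CHAF1B from 2.12 to 2.37, DNMT3A from -1.18 to -1.02, TET2 from -1.74 to -0.83 and TET1 from 0.09 to 0.56. The ratio DNMT3B minus DNMT3A ranged from -0.44 to 0.15 in those fits, reversing at 0.15 without CCT068127 replicate 3.

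Among other named genes, UHRF2 reversed to -0.07 on log2(TPM + 1), log2(TPM + 0.1) and unfiltered values, and IGF2 to -0.02. MAGEA3, with no call, ranged from -0.12 to 0.41 when single libraries were left out and reversed to -0.32 (log2(TPM + 0.1)), -0.23 (log2(TPM + 1), with or without a filter), -0.03 (library totals) and -0.12 (without CCT068127 replicate 3). Without a filter on low counts, 0 methylation readers, 5 maintenance partners, 1 methyl donor gene, 3 demethylation partners and 5 chaperones (with 7 lower, median -0.12) were higher. The cause of these changes was not tested. No pairing by replicate number was seen: deviations of same-numbered libraries correlated at 0.01, 0.005 and 0.009. Counting noise in the shallow libraries could hide a weak pairing. With the replicate number as a block 8297 genes were called, 4107 higher and 4190 lower, and the block changed no call among the 10 genes. DNMT3B had 7 to 21 counts, TET1 12 to 20 and TET2 16 to 43 in the CCT068127 libraries, and the counting intervals of TET2 in replicates 1 and 3 (2.01 to 5.53 and 7.34 to 13.7 CPM) did not overlap.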

Other observations

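Imprinted genes, whose parental alleles are marked by DNA methylation, moved in both directions. Of 24 on the list 13 were tested, with 7 higher and 4 lower (median 0.42), against 31.9% and 32.8% of all tested genes. In TPM, on the log2(TPM + 1) scale, 5 were higher and 6 lower (median -0.20). CDKN1C, a growth inhibitor, rose to 280 ± 42.9 CPM in CCT068127, against 13.8 ± 1.78 CPM in DMSO (log2 fold change 4.32 ± 0.15), and its neighbour in the same imprinted cluster PHLDA2 rose by 2.95 ± 0.14. SGCE rose by 1.20 ± 0.13 and SNRPN fell by 0.83 on the log2 scale (edgeR adjusted p = 2.55e-05). IGF2, added after its value was seen, stood at 517 ± 38.7 CPM in CCT068127 and 387 ± 52.8 CPM in DMSO (log2 fold change 0.42 ± 0.12, edgeR adjusted p = 0.0095), with no call with library totals (0.10, adjusted p = 0.441). Allele of origin cannot be read from these tables.

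Germline genes that are known to be kept silent in somatic cells by promoter methylation stayed near the limit of detection. Of 22 genes, 15 had 0 counts in all CCT068127 libraries and 2 in all DMSO libraries, of which replicates 1 and 2 were the deep ones, and only MAGEA3 was high enough to test. It stood at 2.72 ± 1.18 CPM in CCT068127 and 2.54 ± 0.509 CPM in DMSO and did not pass (log2 fold change 0.28 ± 0.32, edgeR adjusted p = 0.456), and it shares sequence with other MAGEA genes. BRDT, a testis bromodomain gene singled out after its values were seen, had 4, 4 and 8 counts in CCT068127 replicates 1 to 3 and 24, 38 and 0 counts in DMSO replicates 1 to 3. Its ratio of pooled CPM was 20.6 (exact 95% interval 11.1 to 36.2, counting error only), with a DMSO pool mostly of replicates 1 and 2. The same ratio was 2.21 (0.947 to 4.42) for MAGEA1 and 1.3 (0.884 to 1.84) for MAGEA3. BRDT passed the filter on low counts in 1 of the leave-one-out fits, without CCT068127 replicate 1. It was called higher there (log2 fold change 4.81 ± 0.58). BRDT passed the filter in that fit only through its CCT068127 libraries, with DMSO at 0.071 pooled CPM. That call therefore adds no support. Without a filter, BRDT (4.13, edgeR adjusted p = 3.6e-09) and MAGEB2 (2.24, edgeR adjusted p = 0.0432) were called higher, and on unfiltered log2(TPM + 1) values BRDT was called higher (0.70, limma adjusted p = 0.0222) and STK31 lower (-0.25, limma adjusted p = 0.0181). BRDT and MAGEB2 had 0 counts in DMSO replicate 3, and STK31 had 0 counts in all CCT068127 libraries, so these fitted values depend on the prior count or pseudocount. MAGEB2 and STK31 too were named after their values were seen.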
